A study of Rattus norvegicus with 13 samples.

Results

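The proteasome genes of the rat frontal cortex were examined 1 month after head trauma. The group was defined by gene name: every array probe named Psma, Psmb, Psmc, Psmd, Psmf or Psmg with a number, except the immune-inducible subunits Psmb8 and Psmb9. A probe counted as measured where all arrays of some group gave a signal well above background, and its gene was read from its brightest probe. All 42 such names were measured, out of 17250 genes tested. The rule uses no measured difference, but it was chosen with earlier results of these data known. Of the 42, 41 were well above background on all 13 arrays (97.6%, against 86.8% of all genes tested). The exception was Psmb11, a subunit known from the thymus. Of the 42 names, 39 belong to the constitutive proteasome, its chaperones or its inhibitor. Psmb10 is an inducible catalytic subunit, Psmb11 is the thymic one, and Psmc3ip, a protein of meiotic recombination, is no part of the proteasome. Psma3 and Psma3l, which have a probe each on this array, are 1 gene in the current rat annotation.

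All animals were male Sprague-Dawley rats, and their age was not given in the sources used here. Rotational trauma, a head injury by angular acceleration, had 3 samples, and its own sham group had 3. Lateral fluid percussion trauma, a pressure pulse onto the dura, had 3 samples, and its own sham group had 4. Sham rats went through anaesthesia and the whole operation but received no injury. Frontal cortex RNA from each sample was hybridised to 1 single-colour Agilent array. The tissue was not sorted, so fewer cells of a type and less RNA per cell cannot be told apart. The samples are numbered within their groups, and p-values measure only the spread between these samples, part of which may be technical.

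The proteasome degrades proteins that carry chains of ubiquitin. Its core particle is a barrel of alpha and beta rings, whose beta subunits Psmb5, Psmb6 and Psmb7 hold the catalytic sites. A regulatory particle at the ends of the barrel has a ring of ATPases (Psmc genes), which unfold the substrate, and non-ATPase subunits (Psmd genes), which bind ubiquitin chains and remove them. Dedicated chaperones (Psmg1, Psmg2, Psmg4, Psmd5, Psmd9 and Psmd10) help to assemble the parts. Neurons, which are not replaced, depend on this system for the turnover of synaptic and damaged proteins.

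The values below rest on probes of 60 bases. The probes of the catalytic subunits and of Psmd14, the deubiquitinase of the regulatory particle, are shown because these are the enzymes of the complex. No genome or transcript annotation of that build was used here, so exon and UTR positions are not given. Coordinates are on rn4, as given for the array's probes. The intervals of the Psmb7 and Psmd14 probes are longer than the probe, as for a probe whose bases lie on both sides of an intron, and 8 of the 42 probes have such intervals.
Psmb5 (chr15:32690134-32690193, minus strand): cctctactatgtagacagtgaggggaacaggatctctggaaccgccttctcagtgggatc
Psmb6 (chr10:57371368-57371427, plus strand): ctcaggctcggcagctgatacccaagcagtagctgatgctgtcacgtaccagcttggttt
Psmb7 (chr3:18413231-18433105, minus strand): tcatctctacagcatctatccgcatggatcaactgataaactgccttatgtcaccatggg
Psmd14 (chr3:43696292-43699023, minus strand): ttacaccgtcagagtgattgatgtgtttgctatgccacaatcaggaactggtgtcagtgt
Of the 42 genes, 16 have like-named copies or pseudogenes in the RefSeq gene table, among them Psmb3 with 10 and Psma6 with 5. Whether such copies contribute to these signals was not tested, and the values of those 16 genes are uncertain in that respect. The genes lie on 16 chromosomes in the array files, with 7 on chromosome 10 and 6 on chromosome 3.

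The promoters of 36 of the 42 genes were found in the RefSeq promoter table (GRCr8), and the 250 bases before the start site were searched on both strands. Members of the NFE2L1 and NFE2L2 family, known transcriptional activators of proteasome genes, bind elements with the core TGACNNNGC. This core was present in 6 of the 36 promoters (16.7%), against 12.4% of 9615 measured genes and 10.1% of all 33469 promoters of that length. The 6 genes were Psma3, Psmb2, Psmb5, Psmb6, Psmd1 and Psmd9. The promoters of Psmb5 and Psmb2, which both encode beta subunits, are shown because they hold the core, marked in capitals.
Psmb5 promoter (GRCr8, chr15:32047380-32047629, minus strand): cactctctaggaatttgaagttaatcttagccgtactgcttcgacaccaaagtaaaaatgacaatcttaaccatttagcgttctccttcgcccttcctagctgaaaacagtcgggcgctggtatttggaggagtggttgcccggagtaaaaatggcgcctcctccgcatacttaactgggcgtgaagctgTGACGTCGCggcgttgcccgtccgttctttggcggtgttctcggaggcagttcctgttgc
Psmb2 promoter (GRCr8, chr5:144254808-144255057, plus strand): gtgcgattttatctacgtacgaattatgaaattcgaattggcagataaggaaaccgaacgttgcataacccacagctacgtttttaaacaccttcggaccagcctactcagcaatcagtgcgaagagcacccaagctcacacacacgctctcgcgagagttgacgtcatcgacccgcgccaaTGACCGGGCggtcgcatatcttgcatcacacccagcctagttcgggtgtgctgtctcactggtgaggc
The core starts 60 bases before the start site in Psmb5 and 68 bases before it in Psmb2. In Psmb2 it overlaps a CCAAT match and a GGGCGG match, and in Psmb5 it overlaps no other searched motif. CCAAT was found in 18 of the 36 promoters, against 34.6% of measured genes. GGGCGG was found in 69.4%, against 56.5% of measured genes. CCGGAAG, the core of ETS factor sites, was found in 30.6%, against 13.3% of measured genes. Across all promoters the shares were 34.0% for CCAAT, 30.5% for GGGCGG and 7.27% for CCGGAAG. A match describes the letters of the window and says nothing of binding in these samples.

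Expression is given on the log2 scale as the processed signal of a probe minus the 75th percentile of its array. Differences are trauma minus the sham of the same model, with a 95% interval from the moderated standard error of limma. A probe's level is not comparable with that of another probe. Between 67.0% and 74.1% of the spots of an array were well above background, and no spot was saturated. That share was 73.1% to 74.1% in rotational sham, 67.0% to 72.5% in rotational trauma, 67.6% to 69.4% in percussion sham and 72.7% to 73.8% in percussion trauma. It followed the column of the slide. Each model lay on 1 slide, with trauma and sham in different columns and in opposite order on the 2 slides. Within a model, column and group cannot be told apart, and neither can model and slide. For the same reason a difference between the 2 trauma effects cannot be told apart from one between columns. All 9 markers of cortical neurons fixed for the tissue check were measured. The striatal markers had a median centred level of 1.84, -0.37 and 1.24 in the 3 rotational sham samples, against -0.74 to 0.37 elsewhere, so samples 1 and 3 of that group stood apart.

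None of the 42 genes passed an adjusted p of 0.05 by limma with Benjamini-Hochberg adjustment over all genes, in either model, in the mean of both or in the difference between them. The share of all genes that passed was 0.0116% in rotational trauma and 0% in the other 3 comparisons. At an unadjusted p under 0.05 the count was 0 of 42 for rotational trauma (6.86% of all genes) and 1 of 42 for percussion trauma (11.3%). It was 1 of 42 for the mean of both models (8.92%) and 0 of 42 for the difference between them (8.57%). By direction, the rotational count was 0 of 42 both higher (2.85% of all genes) and lower (4.02%). The percussion count was 0 of 42 higher (7.52%) and 1 of 42 lower (3.76%), the latter being Psmf1. For the mean, 0 of 42 were higher (5.1%) and 1 of 42 lower (3.83%), the latter being Psmc6. For the difference, 0 of 42 were higher (6.58%) and 0 of 42 lower (1.99%). The smallest adjusted p-values of the limma fit were 0.783, 0.416, 0.484 and 0.609 in these 4 comparisons.

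The intervals give the precision of these differences. For 40 of the 42 genes (95.2%) the 95% interval of the rotational effect lay wholly within a 1.5-fold change in either direction, and so it did for 39 (92.9%) in percussion. The shares of all genes were 73.9% and 74.8%. Of the 39 measured genes of the wider ubiquitin and proteasome system, described below, 36 (92.3%) had such intervals in each model. For the mean of both models, 37 of 42 intervals (88.1%) lay within 1.2-fold, against 51.6% of all genes. A change smaller than these bounds is not excluded by them. The point estimates were smaller still in rotational trauma, where 38 of the 42 differed from sham by less than 0.1 on the log2 scale (90.5%, against 53.8% of all genes). In percussion trauma 25 of 42 did (59.5%, against 47.9%).

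**Figure D1:**
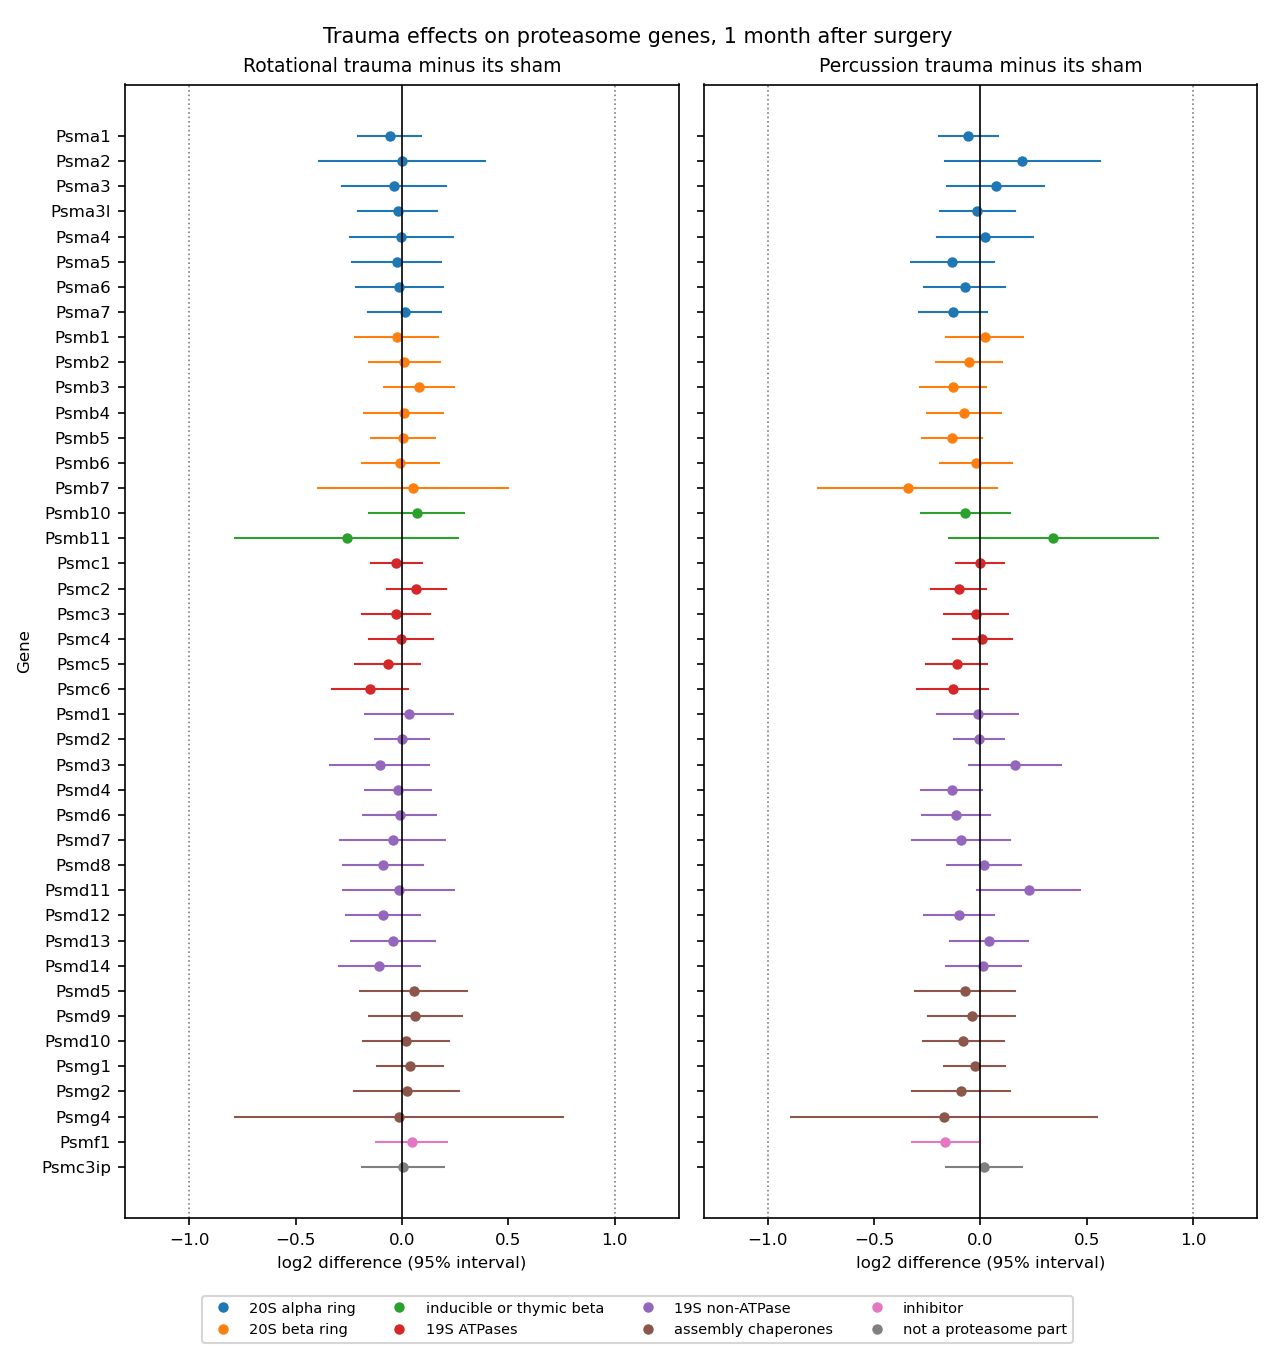
Each row is a proteasome gene and each point its log2 difference, trauma minus the sham of its model, in rotational (left) and percussion trauma (right). Bars are 95% intervals, colours mark the role of the gene, and dotted lines mark a log2 difference of 1 in either direction; only Psmf1 in percussion has an interval that does not include 0, and Psmb7, Psmb11 and Psmg4 have the widest ones.

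The genes also varied little between samples of 1 group, but this was not particular to them. The median standard error of the rotational effect was 0.086 for the 42, 0.089 for the 39 genes of the wider system and 0.12 for all genes. The residual SD of the 42 over the 4 groups had a median of 0.096 on the log2 scale, against 0.15 for all genes, and 38 of the 42 lay below the all-gene median. Psmc1, an ATPase subunit, had the smallest residual SD of the 42, at 0.034. Its 13 values spanned 2.34 to 2.56. The 4 genes above the all-gene median were Psma2 (0.23), Psmb7 (0.27), Psmb11 (0.32) and Psmg4 (0.47), and each is described with its group.

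The alpha ring forms the gate of the core particle. Of its 8 probes 1 was higher and 7 were lower in rotational trauma than in sham, where 60.2% of all genes were lower. The median difference was -0.017, with a range of -0.058 to 0.012. In percussion trauma 3 were higher and 5 lower (47.3% of all genes), with a median of -0.036 and a range of -0.13 to 0.20. None passed. Psma2 had the highest value in that range. It read 0.12, 0.50 and 0.75 in percussion trauma and 0.026, 0.24, 0.68 and 0.11 in percussion sham. The groups overlapped, with sham 3 above 2 of the 3 trauma samples. The difference was 0.20 (-0.17 to 0.56, limma adjusted p = 0.683). Leaving out 1 array at a time gave 0.050 to 0.365, the lowest without trauma replicate 3. In the rotational model Psma2 read 0.72, 0.83 and 0.90 in trauma and 0.92, 0.74 and 0.79 in sham, which is a difference of -0.0001.

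Psma3 and Psma3l show how well 2 probes of 1 gene can be read. Their probes start 1059 bases apart on chromosome 6 of rn4. In rotational trauma the differences were -0.039 for Psma3 and -0.021 for Psma3l. In percussion trauma they were 0.073 and -0.014. The probes differed in sign in percussion, and both differences were smaller than their standard errors of 0.10 and 0.080.

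The beta ring carries the catalytic sites. In rotational trauma 5 of its 7 constitutive subunits were higher (39.8% of all genes) and 2 lower, with a median of 0.0087. In percussion trauma 1 was higher and 6 lower (47.3% of all genes), with a median of -0.078. In the mean of both models all 7 were lower (54.7% of all genes), with differences of -0.15 to -0.0031. None passed.

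Psmb5, the chymotrypsin-like subunit, read 3.47, 3.54 and 3.52 in rotational trauma and 3.44, 3.52 and 3.56 in its sham. The difference was 0.0046 (-0.15 to 0.15). In percussion it read 3.50, 3.49 and 3.65 in trauma and 3.67, 3.74, 3.70 and 3.596 in sham. Trauma samples 1 and 2 lay below every sham sample and trauma 3 lay among them. The percussion difference was -0.13 (-0.27 to 0.0079, limma adjusted p = 0.463).

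Psmb6, the caspase-like subunit, had a difference of -0.0075 in rotational trauma (-0.19 to 0.17) and -0.019 in percussion (-0.19 to 0.15). Its percussion values were 1.71, 1.42 and 1.596 in trauma and 1.49, 1.69, 1.65 and 1.55 in sham, and its rotational values were 1.70, 1.79 and 1.74 in trauma and 1.71, 1.76 and 1.79 in sham. Trauma and sham overlapped in both models, and the sign of both differences turned with the scaling of the arrays.

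Psmb7, the trypsin-like subunit, read 1.08, 2.10 and 2.01 in percussion trauma and 2.08, 2.05, 2.04 and 2.11 in its sham. Trauma sample 1 lay below all other arrays, which spanned 2.01 to 2.29. Both spots of the probe on that array were low, at 1.19 and 0.97. The percussion difference of -0.34 (-0.76 to 0.077, limma adjusted p = 0.52) was -0.016 without that sample. Rotational trauma read 2.20, 2.29 and 2.22 and its sham 2.10, 2.25 and 2.21, a difference of 0.051.

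Psmb3, a structural subunit of the beta ring, had opposite signs in the 2 models. It read 2.78, 2.92 and 2.85 in rotational trauma and 2.72, 2.81 and 2.78 in sham, a difference of 0.078. Percussion values were 2.70, 2.58 and 2.81 in trauma and 2.75, 2.90, 2.88 and 2.78 in sham, a difference of -0.13. The groups overlapped in both models. The percussion effect minus the rotational effect was -0.21 (-0.43 to 0.018), and this difference did not pass (limma adjusted p = 0.609).

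Psmb10 replaces Psmb7 in the immunoproteasome, the form that interferon induces. Its rotational trauma values were 2.36, 2.05 and 2.17 and its sham values 2.10, 2.13 and 2.14, with trauma sample 1 above all others. The difference of 0.07 (-0.15 to 0.29) turned to -0.014 without that sample. In percussion Psmb10 read 1.82, 1.85 and 2.12 in trauma and 1.89, 2.10, 2.07 and 1.96 in sham, a difference of -0.071 (-0.28 to 0.14).

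Psmb11 was not well above background in any of the 4 percussion sham samples, and was so in 3 of 3 percussion trauma samples, 3 of 3 rotational sham samples and 1 of 3 rotational trauma samples. The 7 arrays with a signal well above background were the 6 of the first slide column and 1 of the second. A second Psmb11 probe was above background on none of the 13 arrays. Psmb11 read -5.91, -5.94 and -5.81 in percussion trauma and -5.79, -6.23, -6.42 and -6.48 in percussion sham, where the values bound the level only. In the rotational model it read -5.48, -6.48 and -5.64 in trauma and -5.63, -5.72 and -5.46 in sham. In the rotational model only the sham group was well above background on all its arrays, against 1 of 3 trauma samples. The other trauma values bound the level only, and a lower trauma level is partly built in. The fitted rotational difference of -0.26 is therefore not read as an effect, and it was 0.0465 without trauma replicate 2. No fold is given for percussion, because the mean of the trauma samples did not exceed the lowest signals above background on the sham arrays.

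Of the 6 subunits of the ATPase ring 1 was higher and 5 were lower in rotational trauma (60.2% of all genes lower). The median was -0.028. The same counts held in percussion (47.3% of all genes lower), with a median of -0.061. None passed. At an unadjusted limma p under 0.05 the ring had 0 of 6 in each model, and 1 of 6, Psmc6, in the mean of both, where 8.92% of all genes were. Psmc6 read 0.29, 0.37 and 0.28 in rotational trauma and 0.34, 0.59 and 0.46 in sham. In percussion it read -0.08, 0.063 and 0.097 in trauma and 0.098, 0.27, 0.13 and 0.12 in sham, where all 3 trauma samples lay below all 4 sham samples. The rotational groups overlapped. The differences were -0.15 and -0.13, and their mean was -0.14 (-0.26 to -0.019, limma adjusted p = 0.484). The mean stayed between -0.18 and -0.11 over 24 alternatives, with adjusted p-values of 0.242 to 0.781.

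Psmc2 was the only gene whose rotational trauma samples all lay above sham, a pattern held by 4.85% of all genes. It read 3.87, 3.88 and 3.84 in trauma and 3.78, 3.79 and 3.81 in sham, a difference of 0.067 (-0.072 to 0.21, limma adjusted p = 0.937). Percussion values were 3.72, 3.67 and 3.85 in trauma and 3.83, 3.91, 3.86 and 3.79 in sham, a difference of the other sign (-0.10, -0.23 to 0.028). Psmc5 was lower in both models, by values of -0.068 and -0.11, with a mean of -0.09 (-0.19 to 0.015, limma adjusted p = 0.638). Its rotational samples read 5.39, 5.34 and 5.40 in trauma and 5.39, 5.45 and 5.49 in sham. Its percussion samples read 5.10, 5.12 and 5.23 in trauma and 5.22, 5.37, 5.30 and 5.16 in sham. Both pairs of groups overlapped. The other 3 ATPases, Psmc1, Psmc3 and Psmc4, differed from sham by -0.028 to 0.0095.

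**Figure D2:**
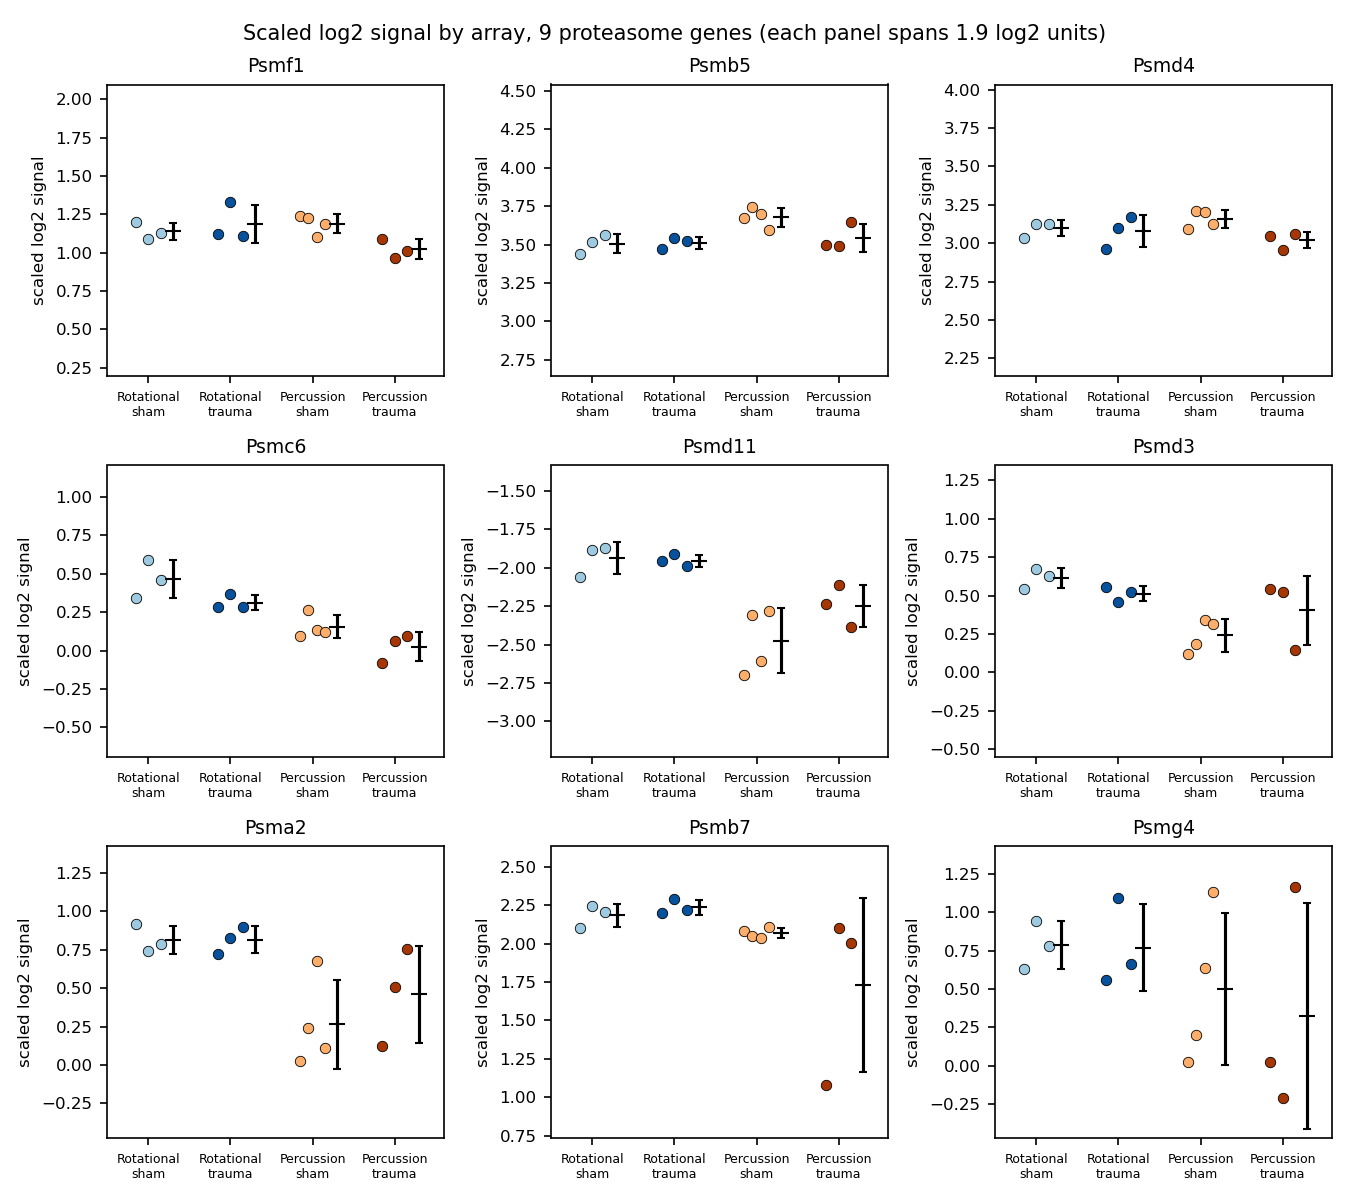
Each panel shows 1 gene, each point 1 array, and the vertical axis the scaled log2 signal; every panel spans the same range of 1.9 units. Bars give the group mean and SD. Psmb7 has 1 percussion trauma array at 1.08, Psmg4 scatters in both percussion groups, and percussion trauma lies below percussion sham without overlap for Psmf1, Psmd4 and Psmc6.

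Psmd11, a non-ATPase subunit, had the highest percussion difference of the 41 genes above background on all arrays. In rotational trauma 1 of 11 was higher and 10 were lower (60.2% of all genes), with a median of -0.041. In percussion 5 were higher and 6 lower (47.3% of all genes), with a median of -0.0064. None of the 11 passed. Psmd11, which helps to hold the lid together, read -2.24, -2.11 and -2.39 in percussion trauma and -2.70, -2.31, -2.61 and -2.28 in sham. Trauma 3 lay below 2 of the 4 sham samples. The difference was 0.23 (-0.015 to 0.47, limma adjusted p = 0.466). Leaving out 1 array at a time gave 0.15 to 0.30, the lowest without sham replicate 1. In rotational trauma Psmd11 read -1.96, -1.91 and -1.99, against -2.06, -1.88 and -1.87 in sham, a difference of -0.016.

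Psmd3, another lid scaffold subunit, read 0.54, 0.52 and 0.14 in percussion trauma and 0.12, 0.19, 0.34 and 0.32 in sham. Trauma samples 1 and 2 lay above all sham samples, and trauma 3 lay within the sham range. The difference was 0.16 (-0.055 to 0.38), and it was 0.092 without trauma replicate 1, 0.10 without trauma replicate 2 and 0.29 without trauma replicate 3. In rotational trauma Psmd3 read 0.55, 0.46 and 0.52, against 0.54, 0.67 and 0.63 in sham, a difference of -0.11. The percussion effect minus the rotational effect was 0.27 (-0.05 to 0.58, limma adjusted p = 0.646).

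Psmd4, a ubiquitin receptor, had percussion trauma values of 3.04, 2.96 and 3.06, all below the sham values of 3.09, 3.21, 3.20 and 3.12. The difference was -0.14 (-0.28 to 0.0095, limma adjusted p = 0.466). In the rotational model it read 2.96, 3.10 and 3.17 in trauma and 3.04, 3.13 and 3.13 in sham, and the groups overlapped (difference -0.018).

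Psmd12, a lid subunit, was lower in both models, by values of -0.091 and -0.10. It read 2.67, 2.78 and 2.64 in rotational trauma and 2.73, 2.83 and 2.81 in sham. It read 2.60, 2.57 and 2.83 in percussion trauma and 2.70, 2.82, 2.82 and 2.73 in sham. Trauma and sham overlapped in both models, and the mean of both effects was -0.096 (-0.22 to 0.024, limma adjusted p = 0.665).

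Psmd14 removes the ubiquitin chain before a substrate is degraded. It read 0.24, 0.49 and 0.47 in rotational trauma and 0.56, 0.51 and 0.45 in sham, with trauma sample 1 the lowest of the 6. The difference was -0.11 (-0.30 to 0.083), and it was -0.024 without that sample. In percussion it read 0.14, 0.27 and 0.23 in trauma and 0.058, 0.20, 0.28 and 0.26 in sham, a difference of 0.014 (-0.16 to 0.19) whose sign turned with the scaling. Psmd1 and Psmd2, the large scaffold subunits that bind shuttle factors, differed from sham by -0.014 to 0.033 over the 2 models.

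Among the assembly chaperones 5 of 6 were higher in rotational trauma (39.8% of all genes), with a median of 0.030. All 6 were lower in percussion trauma (47.3% of all genes), with a median of -0.076. None passed in either model, and none passed for the difference between the models. In that difference all 6 were lower in percussion (42.4% of all genes), and the smallest unadjusted limma p was 0.437. Psmg4, which helps to build the alpha ring, was the most variable of the 42 genes. It read 0.023, -0.21 and 1.16 in percussion trauma and 0.026, 0.20, 0.64 and 1.13 in sham, and both groups spanned more than 1 log2 unit. A second Psmg4 probe, which shares the 14 bases CGGAAAAGTTCTGA with the first, read -0.25, -0.41 and -0.0086 in percussion trauma and -0.11, 0.012, -0.17 and -0.013 in sham. It spanned -0.41 to 0.012 over all 13 arrays, where the brighter probe spanned -0.21 to 1.16. The percussion differences of the 2 probes were -0.17 and -0.15, with standard errors of 0.33 and 0.092.

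Psmd9, a chaperone of the ATPase ring, also had 2 probes, and they differed in sign in the rotational model. The brighter one read 1.08, 0.97 and 1.11 in trauma and 1.00, 0.91 and 1.06 in sham, a difference of 0.061. The other read 0.31, 0.19 and 0.32 in trauma and 0.36, 0.37 and 0.38 in sham, a difference of -0.097. All 3 trauma values of the dimmer probe lay below its sham values, whereas the brighter probe overlapped. In percussion the differences were -0.042 and -0.0095.

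Psmf1 encodes an inhibitor of the core particle. It had the smallest percussion p of the 42 genes. Its percussion trauma values were 1.09, 0.96 and 1.01, all below the sham values of 1.24, 1.23, 1.102 and 1.19. The difference was -0.17 (-0.32 to -0.01), a 1.12-fold lower signal, with an unadjusted limma p of 0.0388 and an adjusted p of 0.416. Over 25 alternatives it lay between -0.24 and -0.13, with adjusted p-values of 0.214 to 0.685. In the rotational model Psmf1 read 1.12, 1.33 and 1.11 in trauma and 1.2005, 1.09 and 1.13 in sham, a difference of 0.045. The percussion effect minus the rotational effect was -0.21 (-0.44 to 0.018, limma adjusted p = 0.609).

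The second Psmf1 probe did not separate the percussion groups. It read -0.056, 0.072 and -0.60 in trauma and -0.074, -0.18, -0.085 and -0.10 in sham, with trauma samples 1 and 2 above all sham samples and trauma sample 3 far below them. Its difference was -0.084 (SE 0.14). Each Psmf1 probe is a single spot on the array.

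**Figure D3:**
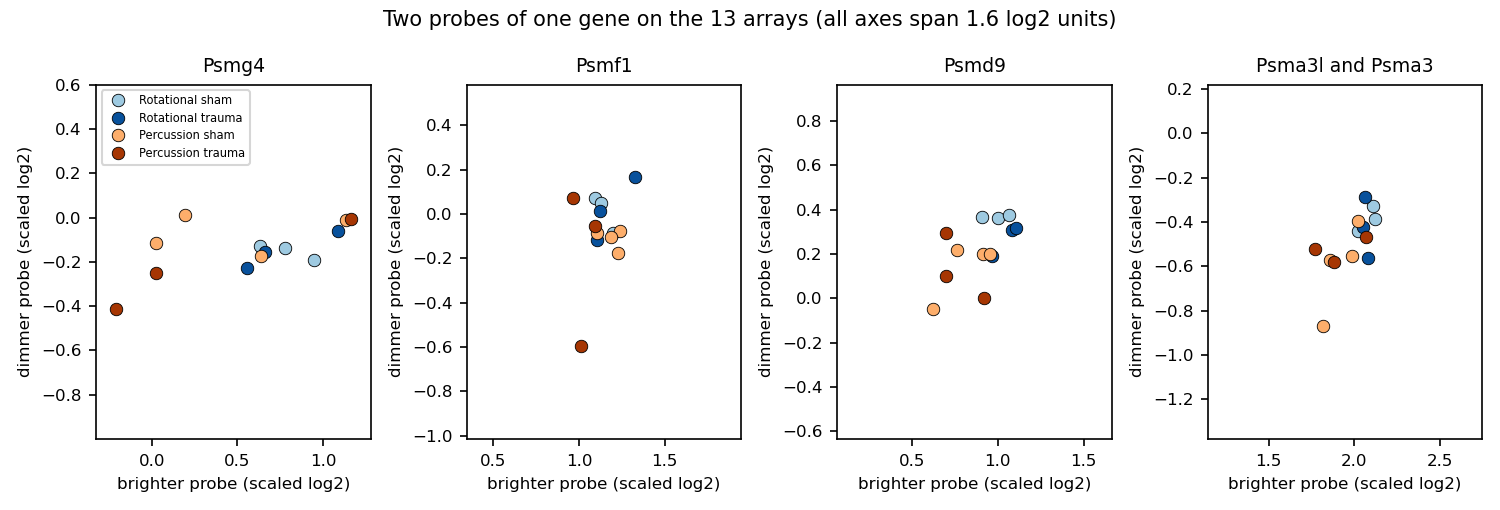
Each panel compares 2 probes of 1 gene on the 13 arrays, with the scaled log2 signal of the brighter probe on the horizontal axis and that of the dimmer probe on the vertical axis; all axes span 1.6 units and colours mark the groups. The Psmg4 probes differ in spread, the dimmer Psmf1 probe has 1 percussion trauma array at -0.60, and the Psma3 probe, dimmer than that of Psma3l, has 1 percussion sham array at -0.87.

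By sign, more of the 42 genes were lower than higher in percussion trauma, and the split depended on how arrays were scaled. In percussion 12 were higher and 30 lower (28.6% higher, against 52.7% of all genes higher and 47.3% lower), with a median of -0.055 against 0.011 for all genes. In rotational trauma 16 were higher and 26 lower (38.1% higher, against 39.8% of all genes higher and 60.2% lower), with a median of -0.0088 against -0.029. In the mean of both models 12 were higher and 30 lower, where 45.3% of all genes were higher and 54.7% lower. In percussion minus rotational 17 were higher and 25 lower, where 57.6% of all genes were higher and 42.4% lower. Without Psmb10, Psmb11 and Psmc3ip the percussion split was 10 higher and 29 lower of 39. With quantile normalisation, and with the authors' deposited log2 values, the percussion split was 19 higher of 42, and with each array's median as the reference it was 5 higher. The same 3 settings gave 23, 23 and 11 higher in rotational trauma and 22, 21 and 2 higher in the mean of both. Scaling to the median also moved the median of all genes in percussion to -0.058, from 0.011. In rotational trauma it moved to -0.045, from -0.029, and in the mean of both to -0.053, from -0.011. The shares of all genes higher in these settings are not given here, so the counts are not read as particular to the proteasome genes.

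Few of the 42 genes had groups that did not overlap. In rotational trauma 1 of 42 was higher without overlap (Psmc2) and 0 of 42 were lower, where 10.6% of all genes were lower. In percussion 0 of 42 were higher, where 5.90% of all genes were, and 3 of 42 were lower (7.14%: Psmc6, Psmd4 and Psmf1), where 3.82% of all genes were. No gene was separated in both models. Both differences were below 0 for 15 of the 42 (35.7%, against 28.5% of all genes) and above 0 for 1, Psmc3ip (2.38%, against 21.0%).

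Percussion trauma replicate 3 was the highest of the 3 trauma samples in 28 of 42 genes, where it was highest in 40.6% of all genes. Without it, 12 of 42 reached an unadjusted limma p under 0.05, 10 of them lower and 2 higher (Psmd3 and Psmd11). The lower ones were Psma5, Psmd10, Psmb5, Psmc2, Psmd12, Psma7, Psmb3, Psmd7, Psmb7 and Psmd6. That is 23.8% lower, against 6.81% of all genes in the same fit, and 2 of 42 higher, against 11.8% of all genes. Since the array left out was the highest of its group for most of these genes, its removal by itself lowers their trauma means, and the lower calls are no separate observation. None passed after adjustment, with a smallest adjusted limma p of 0.0987, and the median of the 42 was then -0.11. In percussion sham, replicate 1 was the lowest of 4 in 28 of the 42 genes, where it was lowest in 31.8% of all genes. Psmb5 read 3.65 on trauma replicate 3, against 3.50 and 3.49 on the other trauma arrays, and Psma5 read 2.57, against 2.31 and 2.16.

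The level of the 42 genes as a list, taken as the median of their centred log2 values on each array, was -0.097, -0.11 and 0.019 in percussion trauma and -0.098, 0.035, 0.0004 and -0.058 in percussion sham. In the rotational model it was 0.018, 0.084 and 0.077 in trauma and 0.045, 0.065 and 0.079 in sham. Trauma and sham overlapped in both models, and the pooled SD within groups was 0.052. Markers of the meninges and fibroblasts were higher in trauma for 10 of 10 genes in both models (39.8% and 52.7% of all genes). Their medians were 1.04 and 1.31, and 0 of 10 passed. At an unadjusted limma p under 0.05, 5 of 10 were higher in rotational trauma (2.85% of all genes). In percussion trauma 10 of 10 were (7.52% of all genes). These markers were chosen with earlier results of these data known. Their level was 1.36, 0.66 and 0.19 in percussion trauma and -0.16, -0.58, -0.28 and -1.14 in its sham, and 1.04, 0.09 and 0.44 and -0.034, -1.05 and -0.61 in the rotational groups. The cortical neuron markers read -0.17, 0.0081 and 0.15 in percussion trauma and -0.0084, 0.064, -0.01 and 0.091 in its sham. In the rotational groups they read -0.0055, 0.07 and -0.11 and 0.023, 0.036 and -0.0063. Single neuron markers were also lower in percussion at an unadjusted limma p under 0.05, with differences of -0.50 for Rbfox3 and -0.29 for Snap25, and neither passed. Endothelial and mural markers were higher in percussion trauma for 6 of 6 genes (52.7% of all genes), with a median of 0.33. The differences were 0.55 for Acta2, 0.51 for Myh11 and 0.45 for Pdgfrb, and 0.20 for Cldn5, 0.14 for Pecam1 and 0.13 for Flt1. In rotational trauma 3 of the 6 were higher (39.8% of all genes) and 3 lower, with a median of 0.096. Percussion trauma replicate 3 had the highest proteasome level of its group, and some marker lists were also highest or lowest on it. Neuron markers, astrocyte markers (0.20, against -0.036 and -0.072) and red blood cell markers (0.19, against -0.60 and -0.18) were highest there. The meningeal markers and those of the choroid plexus and ependyma (0.09, against 1.24 and 0.73) were lowest there. For the microglia, oligodendrocyte, endothelial and mural, and striatal markers, replicate 3 lay between the other trauma arrays of its group. The part of these cell types in the proteasome values was not tested.

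**Figure D4:**
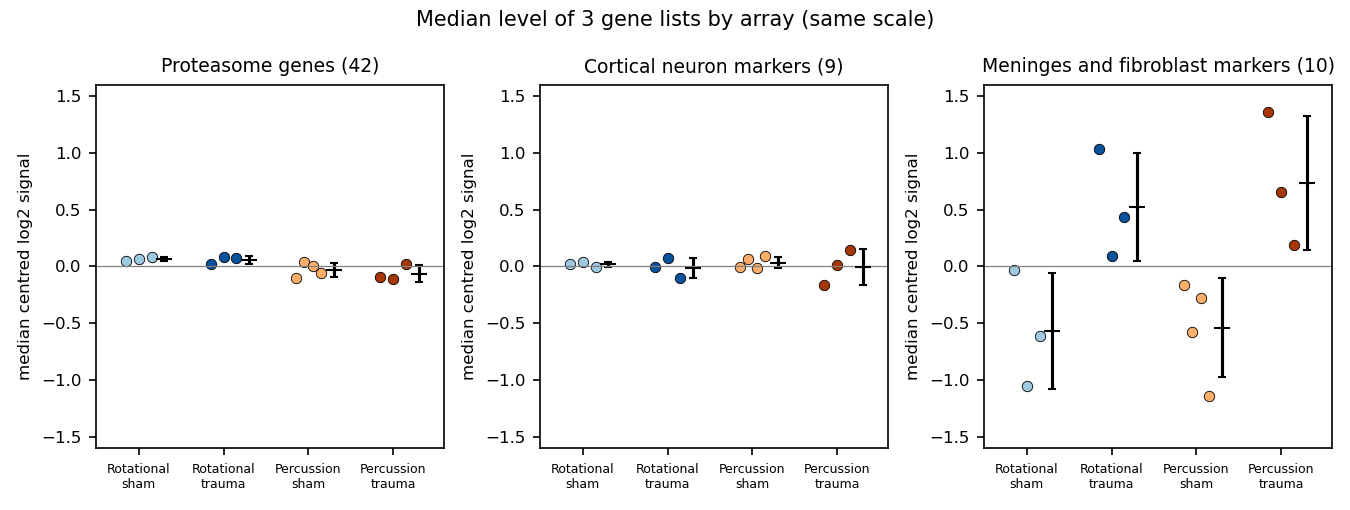
Each point is 1 array, and the vertical axis is the median centred log2 signal of a gene list, on 1 scale for all 3 lists; bars give the group mean and SD. The 42 proteasome genes stay between -0.11 and 0.084, the neuron markers between -0.17 and 0.15, and the meningeal and fibroblast markers spread from -1.14 to 1.36, higher in both trauma groups.

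The sham groups of the models also differed, and there model, slide and slide column cannot be told apart, since rotational shams lay in the first column and percussion shams in the second. Of the 42 genes 34 were lower in percussion sham than in rotational sham (81.0%, against 58.5% of all genes), with a median of -0.10 against -0.059. In 17 of 42 (40.5%) all percussion sham values lay below all rotational sham values, where 25.5% of all genes did so. Psma2 had a difference of -0.55 and Psmd11 one of -0.54 between the shams. Psmb5 and Psmd7 lay wholly higher, where 16.2% of all genes did so.

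The wider ubiquitin and proteasome system was described from 5 lists with 39 measured genes, and 0 of 39 passed in any of the 4 comparisons by limma. At an unadjusted p under 0.05, 4 of 39 did so in the mean of both models, 2 higher and 2 lower (10.3%, against 8.92% of all genes). They were Nfe2l2, Psmb8, Ubqln2 and Ube2k. The count was 1 of 39 in rotational trauma (Nfe2l2, 6.86% of all genes), 2 of 39 in percussion (Mafk and Uchl5, 11.3%) and 2 of 39 in the difference between the models (Mafk and Nfyc, 8.57%). The activators and inducible subunits (7 genes) had medians of 0.062 in rotational and 0.016 in percussion trauma. The shuttle factors and p97 (9 genes) were all lower in rotational trauma, with a median of -0.079. Of all genes 60.2% were lower there, with a median of -0.029. In percussion 4 of the 9 shuttle genes were higher and 5 lower. The ubiquitin genes and activating enzymes (10 genes) had medians of -0.043 and -0.039. The factors bound to the regulatory particle (5 genes) had medians of -0.020 and -0.036, and the transcriptional regulators (8 genes) medians of -0.050 and 0.015.

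Nfe2l2, the transcription factor NRF2, read -0.10, -0.051 and -0.092 in rotational trauma, all above the sham values of -0.29, -0.45 and -0.27. Percussion values were 0.061, -0.23 and 0.059 in trauma and -0.17, -0.22, -0.10 and -0.16 in sham, where trauma samples 1 and 3 lay above every sham sample and trauma 2 below them all. The mean of both effects was 0.19 (0.061 to 0.32, limma adjusted p = 0.346). Nfe2l1, the main known activator of proteasome genes when the proteasome is inhibited, differed by 0.014 in rotational and -0.16 in percussion trauma.

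Mafk, a small Maf protein that pairs with NRF family factors, had the smallest p of the 39 genes, in the difference between the models. It read -4.42, -4.31 and -4.42 in rotational trauma, all below the sham values of -3.74, -4.26 and -3.98, and -4.31, -4.32 and -4.83 in percussion trauma, against -4.73, -4.79, -5.30 and -4.94 in sham. The difference was -0.38 in rotational trauma and 0.46 in percussion, and percussion minus rotational was 0.84 (0.29 to 1.39, limma adjusted p = 0.362). Nfyc, a subunit of the factor that binds CCAAT, differed by -0.22 and 0.21, with a difference between the models of 0.43 (limma adjusted p = 0.557). For Mafk and Nfyc the group in the first slide column, rotational sham or percussion trauma, had the higher mean on each slide. A difference between the trauma effects and one between slide columns cannot be told apart here. Uchl5, a deubiquitinase bound to the regulatory particle, had a percussion difference of -0.18 (limma adjusted p = 0.418). Mafk, Nfyc and Uchl5 were added to the named genes after their values were seen.

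Psmb8, the inducible counterpart of Psmb5, read -1.19, -2.10 and -1.49 in rotational trauma and -2.02, -1.92 and -1.93 in sham. In percussion it read -1.61, -2.52 and -2.33 in trauma and -2.65, -2.39, -2.81 and -2.62 in sham. Trauma and sham overlapped in both models, because replicate 2 of each trauma group lay below at least 1 sham sample. The mean of both effects was 0.41 (0.04 to 0.78, limma adjusted p = 0.507), against -0.064 (-0.17 to 0.039) for Psmb5. The difference between the genes was not tested. Ubqln2, a shuttle factor that carries ubiquitinated proteins to the proteasome, had a mean effect of -0.096 (-0.18 to -0.0068), and Ube2k, a ubiquitin-conjugating enzyme, one of -0.10 (-0.21 to -0.0016).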

How the data were processed

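Each of the 13 samples was hybridised to 1 single-colour Agilent array and read with Feature Extraction 10.5.1.1, per the file headers. The deposited processed signal is an intensity that the software background-subtracted and detrended across the slide, without scaling between arrays. Control spots and outlier spots were left out, spots of a probe were averaged on the log2 scale, and each array's 75th percentile was subtracted. Probes well above background on all arrays of at least 1 group were kept (20004 of 30367), and the brightest probe per gene name gave 17250 genes. The authors' deposited log2 table served as an alternative.

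A group-means model over all 13 arrays was fitted with limma 3.58.1 in R 4.3.3, and p-values were adjusted by Benjamini-Hochberg over all genes at a threshold of 0.05. The number of arrays limits the precision. The fit was tested on simulated data. Genes described singly were the 4 with the smallest p in each direction and model, the 4 in each direction of the mean, the 2 in each direction of the difference, Psmb5, Psmb6, Psmb7, Psmd14 and Psmb10, and the 2 pathway genes in each direction with the smallest p for the mean. Others named beside them were chosen after their values were seen. The members and gene lists were chosen with earlier results of these data known. Alternatives covered scaling, background correction, the filter, probe choice, array weights, slide row, the replicate block and leaving out each array. Promoters came from RefSeq (GRCr8).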

Additional observations from a re-analysis of the deposited data

Results flagged for a closer look

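Psmd10, a chaperone of the regulatory particle, was the 1 gene of 42 whose percussion sham group of 4 held a sample far from the rest. Replicate 1 read 0.61, where the others read 0.73 to 0.75, and its gap to the nearest value was 0.905 of the group's range. Chance marks about 1 in 20 such groups.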

How the results depend on the processing

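None of the 42 genes passed in any of the 25 alternatives for each model or the 24 for the mean and the difference, and the smallest adjusted limma p-values were 0.32, 0.0987, 0.242 and 0.139. With no filter on dim probes, 356 of all 26269 genes passed in rotational trauma and 2978 in percussion. In that setting 0 passed in the mean and 3776 in the difference. In each other alternative at most 48 of all genes passed. The genes at an unadjusted p under 0.05 numbered 0 to 1, 0 to 12, 0 to 5 and 0 to 4. The 12 were 28.6% of the 42, against 18.6% of all genes in that fit, which left out percussion trauma replicate 3. For the other alternatives the share of all genes is not given here, so their counts are not read further. The count of genes higher was 29 in rotational trauma with slide row as a block, 19 in percussion with quantile normalisation or the authors' table and 5 with median scaling. For the mean it was 22 with quantile normalisation, 21 with the authors' table, 2 with median scaling and 19 with the row block. For the difference it was 8 with median scaling and 11 with array weights. With median scaling the median of all genes was -0.045 in rotational trauma, -0.058 in percussion, -0.053 in the mean and -0.015 in the difference. Leaving out 1 array at a time gave 11 to 24, 8 to 17, 5 to 18 and 12 to 20 genes higher (5 for the mean without percussion sham replicate 1), with medians of -0.029 to 0.015, -0.11 to -0.019, -0.049 to -0.0075 and -0.11 to -0.0055. The median was -0.12 in percussion and -0.097 in the difference with median scaling. The labels do not say whether replicate numbers pair the samples. Deviations of same-numbered samples correlated at -0.023 to 0.28, and those of other trauma and sham samples at -0.24 to 0.23. With so few samples these values do not settle it. The replicate block left 0 of the 42 genes passing, with 16, 13, 11 and 17 higher. Of all 17250 genes, 28 passed in the mean in that setting and 0 in the other comparisons. The sign turned as follows, and the cause was not tested. In rotational trauma Psmb5 was -0.012 with median scaling and -0.021 with weights, Psmb6 0.0123 with quantile normalisation and 0.0117 with the authors' table, and Psmd9 -0.018 with all probes averaged. In percussion Psmb6 was 0.0217 and 0.0212 in the same settings, and Psmd14 was -0.054 with median scaling and -0.025 with weights. In the mean Psmd3 was -0.014 with median scaling. Psmb11 has no interpretable sign there, since its percussion sham values are only bounds: the fitted mean was -0.055 with normexp, -0.0016 with median scaling, -0.0014 with the authors' table, -0.020 with the row block and -8e-04 with the replicate block. Leaving out 1 array also turned signs. The rotational ranges were -0.014 to 0.1416 for Psmb10, -0.0279 to 0.0315 for Psmb5 and -0.0311 to 0.0165 for Psmb6. For Psmb11 the fitted rotational values ran from -0.4548 to 0.0465, where part of the trauma values are only bounds. The percussion ranges were -0.086 to 0.0572 for Psmb6 and -0.0325 to 0.0519 for Psmd14. The ranges of the mean were -0.0067 to 0.093 for Psmd3 and -0.0561 to 0.1945 for Psmb11. Genes near background are limited by signal, and Psmb11 is the one such member.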
